A study of Mus musculus with 4 samples.

Results

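The collagen genes of mouse skin were followed in embryos at E17.5 whose epidermis overexpressed the transcription factor gene Ovol2. Members were all genes whose annotated symbol reads Col, a number, a and a number, except Col17a1, with a probe set naming that gene alone. There were 43 such genes among the 19938 genes named on the array: 11 fibrillar, 6 of basement membrane, 9 FACIT (fibril-associated collagens with interrupted triple helices) and 17 of other types. The Ovol2 BT group (2 arrays) carried the TRE-Ovol2-Flag transgene together with K5-tTA, a driver in which the keratin 5 promoter makes the tetracycline transactivator in basal keratinocytes of epidermis and appendages. The control group (2 arrays) was TRE-Ovol2-Flag without the driver, or wild type. Each array held skin RNA of 2 female mice, described as littermates, although the strain label is FVB/N for Ovol2 BT and CB6F1 for controls, so by the labels a strain difference cannot be told apart from that of genotype. Nothing in the labels says whether any mouse received doxycycline, the drug that silences a tetracycline transactivator.

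Collagens are proteins of the extracellular matrix whose chains wind around each other in a helix of glycine-rich repeats. In skin the fibrillar types I, III and V form the fibrils that give the dermis its tensile strength, and they are made mainly by fibroblasts. Type IV forms the sheet-like network of basement membranes, type VII the anchoring fibrils that tie the epidermal basement membrane to the dermis, and type VI a beaded filament network around cells. FACIT collagens sit on the surface of fibrils. The transgene driver is active in epithelium, whereas most of these genes are transcribed in the dermis, and whole skin was measured here. In such bulk RNA, fewer cells of a type and less RNA per cell cannot be told apart.

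Ovol2 had intensities of 4367 and 3893 in the Ovol2 BT arrays and 359.9 and 161 in controls, so the overexpression was visible in both arrays labelled for it. Median intensities over all probe sets lay between 123 and 132. Precision is limited by the number of arrays, and with 2 arrays per group the p-values measure only the spread between these samples. Of 19 dermal fibroblast markers (Dcn, Lum, Dpt and Loxl1 among them also belong to collagen pathway lists), 0 passed the test in either direction, and their mean log2 level was 10.95 and 11.00 in Ovol2 BT, against 10.99 and 10.99 in control skin. Their means were higher for 8 and lower for 11, with a median log2 difference of -0.03. Both Ovol2 BT arrays were above both controls for 2 and below for 4, beside 20.4% and 21.9% of all tested genes. The 3 lowest p belonged to Dpp4, a surface protease gene of dermal fibroblasts (0.53, adjusted p = 0.573), Mfap5, a microfibril gene (0.36, adjusted p = 0.592), and the transcription factor gene Twist1 (-0.32, adjusted p = 0.613).

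No collagen gene passed the test between Ovol2 BT and control skin. Of the 43 genes, 42 passed the filter on dim genes and were tested, and 0 were called at an adjusted p under 0.05 (limma on log2 of intensity + 16, Benjamini-Hochberg adjustment over 14953 genes), where 0.963% of all tested genes were called (0.615% higher, 0.348% lower). At an unadjusted p under 0.05 there were 2 collagen genes higher and 0 lower, beside 5.11% and 5.24% of all genes. The lowest adjusted p of a member was 0.473. Differences ran between -0.58 for Col8a1 and 0.43 on the log2 scale. The 95% intervals of 41 of the 42 lay within a change of 2-fold in either direction, and those of 20 within 1.5-fold. Only the interval of Col8a1 reached beyond 2-fold. A p that misses the threshold does not show that levels were equal, and 22 of the intervals reached beyond 1.5-fold.

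The small differences lay more often on the higher side. Of the 42 tested genes, 33 had a higher mean in Ovol2 BT and 9 a lower one, while 44.4% of all tested genes were higher. The median log2 difference was 0.12, against -0.04 over all tested genes. Both Ovol2 BT arrays exceeded both controls for 22 collagen genes (52.4%), beside 20.4% of all tested genes, and both were below for 4 (9.52%), beside 21.9%. Members share arrays and cells, so these counts are descriptions and carry no test. The split depended on the scaling only in size: 31 genes were higher with each array centred on its median, 35 after quantile normalization and 38 with arrays centred on the dermal fibroblast markers, and the median stayed above 0 in each. Ovol2 BT replicate 1 was the highest of the 4 arrays for 26 of the 42 genes, beside 29.0% of all tested genes. Without it 29 genes were higher and 13 lower, with a median of 0.10, and without Ovol2 BT replicate 2 the counts were 37 and 5, with a median of 0.18. Without control replicate 1 they were 33 and 9, with a median of 0.10, and without control replicate 2 they were 32 and 10, with a median of 0.15.

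**Figure D1:**
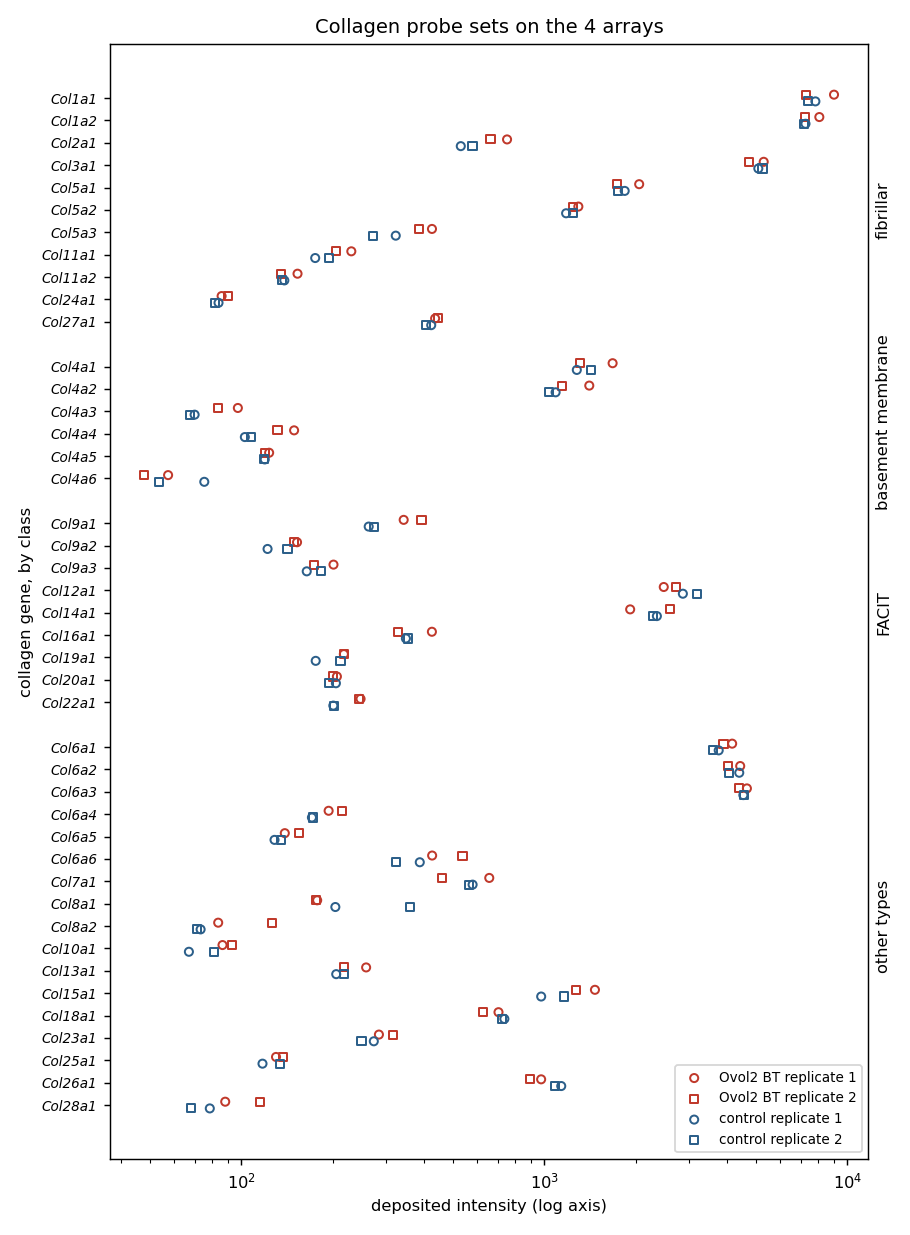
Deposited intensity (log axis) of each collagen probe set on each of the 4 arrays, with Ovol2 BT in red and control in blue, circles for replicate 1 and squares for replicate 2. For 22 tested genes both red points lie to the right of both blue ones, and for 4 both lie to the left. Of all tested genes 20.4% had both Ovol2 BT arrays above both controls and 21.9% both below. Intensities of different genes come from different probes and are not compared with each other.

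**Figure D2:**
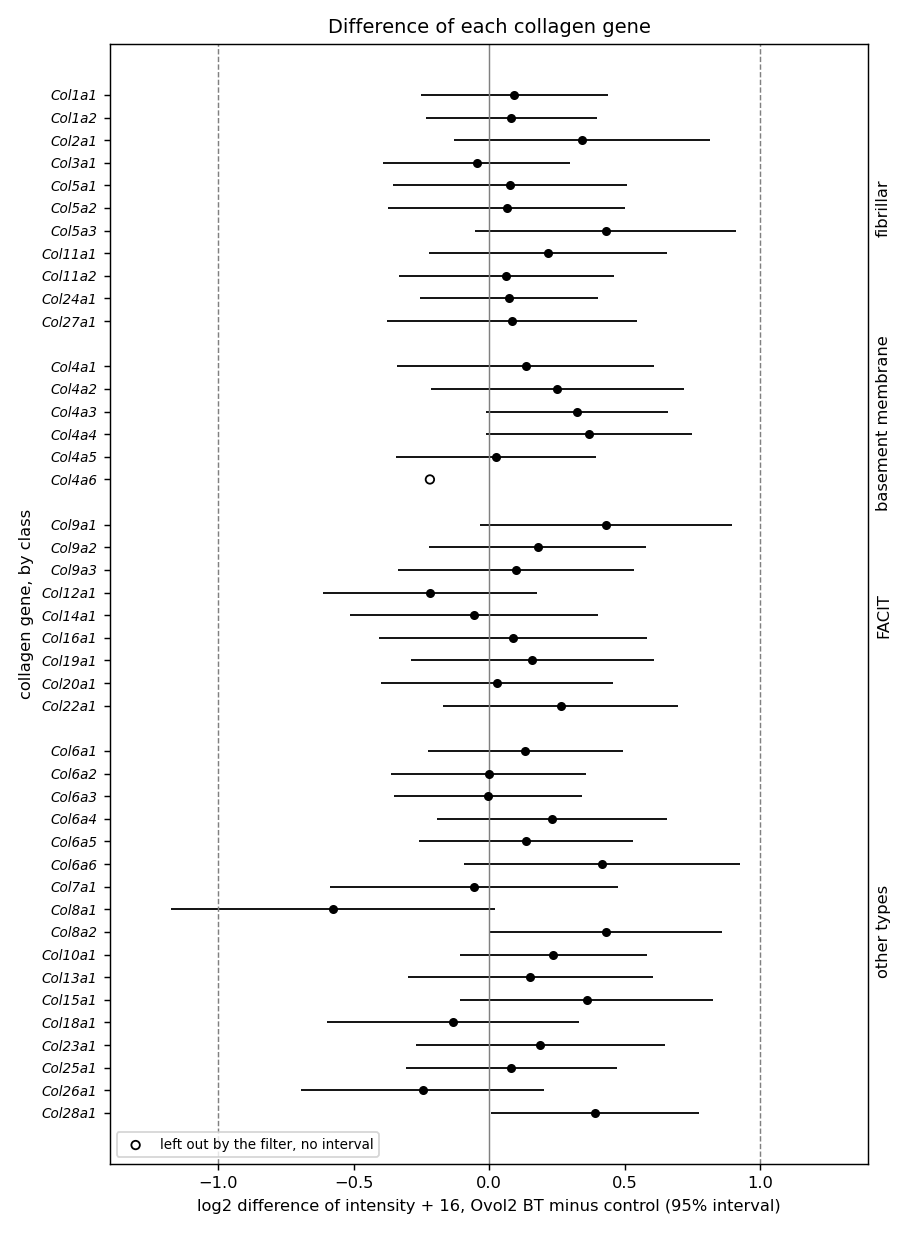
Log2 difference of each collagen gene (Ovol2 BT minus control, points) with its 95% interval from limma (bars). Dashed lines mark 2-fold changes, and all intervals but that of Col8a1 lie between them. Col4a6, the open circle, was left out by the filter and has no interval.

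The main fibrillar collagens of the dermis gave no call and had differences near 0. Col1a1, which encodes the more numerous chain of type I collagen, had intensities of 9027 and 7317 in Ovol2 BT replicates 1 and 2, against 7835 and 7405 in control replicates 1 and 2 (log2 difference 0.09, 95% interval -0.25 to 0.44, adjusted p = 0.844). Ovol2 BT replicate 1 was the highest array and replicate 2 the lowest, so the groups overlapped. Its partner chain gene Col1a2 was at 8073 and 7232 in Ovol2 BT replicates 1 and 2, against 7268 and 7174 in control replicates 1 and 2 (log2 difference 0.08, 95% interval -0.23 to 0.40, adjusted p = 0.851). Again replicate 1 of Ovol2 BT stood above the rest, and the other 3 arrays were within a narrow range. Col3a1, the gene of type III collagen, which is plentiful in embryonic skin, was at 5290.1 and 4717 in Ovol2 BT replicates 1 and 2, against 5078 and 5242 in control replicates 1 and 2 (log2 difference -0.05, 95% interval -0.39 to 0.30, adjusted p = 0.925). Both controls lay between the Ovol2 BT arrays. Without Ovol2 BT replicate 2 the 3 differences were 0.24, 0.16 and 0.04, and without replicate 1 they were -0.06, 0.0023 and -0.13.

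Sequences upstream of the annotated start are shown for 2 of these dermal fibril genes and for the 2 chain genes of type VIII collagen, whose differences had opposite signs. Each run is the 250 bases before the RefSeq start, 5′ to 3′ on the gene's strand, in build GRCm38.p6. Capitals mark matches, on either strand, to the CCAAT box, to the TATA box letters TATAAA and to the GC box letters GGGCGG.
Col1a2, chr6:4505368-4505617, + strand: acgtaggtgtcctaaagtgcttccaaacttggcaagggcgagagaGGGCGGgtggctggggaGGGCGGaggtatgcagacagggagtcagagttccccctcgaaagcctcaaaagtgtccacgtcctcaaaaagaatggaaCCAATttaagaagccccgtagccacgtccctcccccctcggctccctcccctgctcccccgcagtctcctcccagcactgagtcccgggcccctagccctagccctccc
Col3a1, chr1:45311288-45311537, + strand: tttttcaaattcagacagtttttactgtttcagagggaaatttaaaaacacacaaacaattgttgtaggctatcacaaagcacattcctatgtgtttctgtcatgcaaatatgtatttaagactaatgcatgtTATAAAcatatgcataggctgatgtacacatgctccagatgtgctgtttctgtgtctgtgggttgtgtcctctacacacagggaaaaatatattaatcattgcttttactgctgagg
Col8a1, chr16:57754738-57754987, - strand: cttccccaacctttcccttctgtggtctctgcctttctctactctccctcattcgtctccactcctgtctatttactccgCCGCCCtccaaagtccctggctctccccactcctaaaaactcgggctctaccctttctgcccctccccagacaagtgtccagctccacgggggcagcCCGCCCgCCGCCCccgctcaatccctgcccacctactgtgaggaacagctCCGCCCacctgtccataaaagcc
Col8a2, chr4:126286544-126286793, + strand: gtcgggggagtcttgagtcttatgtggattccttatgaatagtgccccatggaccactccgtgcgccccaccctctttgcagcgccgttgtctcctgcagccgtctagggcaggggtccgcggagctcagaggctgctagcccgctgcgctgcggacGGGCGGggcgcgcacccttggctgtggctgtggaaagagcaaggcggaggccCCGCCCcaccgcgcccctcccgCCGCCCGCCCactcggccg
The Col1a2 stretch held CCAAT with its first letter 109 bases before the start and GGGCGG at 205 and 188. That of Col3a1 held TATAAA at 117 and none of the other letters. The type VIII stretches held 4 matches each, all of GGGCGG or its complement CCGCCC, and 2 of those in Col8a2 overlap. RefSeq windows (250 bases before to 50 after the start) were matched for 34 of the 43 genes. GGGCGG or its complement was found in 22 of the 34 (64.7%), beside 38.2% of 27025 genes with a window, CCAAT in 12 (35.3%), beside 41.1%, and TATAAA in 4 (11.8%), beside 15.7%. These are letter matches, not binding sites, and the windows were not tested for activity.

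The remaining fibrillar genes comprised type V, which sets fibril width in skin, and types known mainly from cartilage and bone. Col5a3 had the lowest p of the class, at 425 and 384 in Ovol2 BT replicates 1 and 2, against 323 and 271 in control replicates 1 and 2 (log2 difference 0.43, 95% interval -0.05 to 0.91, adjusted p = 0.536). Both Ovol2 BT arrays were above both controls. The other type V chain genes were closer to level, with Col5a1 at 2054 and 1736 in Ovol2 BT and 1839.5 and 1743 in control skin (log2 difference 0.08) and Col5a2 at 1294 and 1241 in Ovol2 BT and 1179 and 1245 in control skin (0.06). Col2a1, the main fibrillar collagen of cartilage, was at 752 and 664 in Ovol2 BT replicates 1 and 2, against 529 and 579 in control replicates 1 and 2 (log2 difference 0.34, 95% interval -0.13 to 0.82, adjusted p = 0.605). Its groups did not overlap, as was also so for Col11a1, a partner in cartilage fibrils (230.4 and 205 in Ovol2 BT and 175 and 194 in control skin, log2 difference 0.22). Col11a2, Col24a1 and Col27a1 had differences of 0.06, 0.07 and 0.09. Of the 11 fibrillar genes, 10 had higher means and 0 were called. In 5 both Ovol2 BT arrays were above both controls, beside 20.4% of all tested genes, and the class median was 0.08. That median was 0.034 without Ovol2 BT replicate 1 and 0.16 without Ovol2 BT replicate 2.

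Since type II, IX, X and XI collagens belong to cartilage, markers of that tissue are given beside them. Acan, the main cartilage proteoglycan, was at 56.2 and 58.5 in Ovol2 BT and 102 and 95.3 in control skin (log2 difference -0.64, adjusted p = 0.094), lower in both Ovol2 BT arrays and so opposite in sign to Col2a1. Acan passed the test under median centring (adjusted p = 0.0449) and with the replicate number as a block (0.0436). Its Ovol2 BT values lay under the filter's bound, so its control values brought it into the test. Hapln1, which links that proteoglycan to hyaluronan, was left out by the filter at 29.3 and 39.0 in Ovol2 BT and 22.4 and 24.1 in control skin. Of 14 cartilage markers with a probe set, 9 were tested and 0 called. The summed intensity of all 14 was 2569 and 2336 in Ovol2 BT, against 2652 and 2751 in control skin, and Sox9 was its largest part on every array. Of the 9 tested, 6 had higher means and 3 lower, with a median of 0.15. Both Ovol2 BT arrays were above both controls for 4 and below for 3, beside 20.4% and 21.9% of all tested genes. Ucma, a gene of cartilage matrix, was at 78.7 and 102 in Ovol2 BT and 62.2 and 54.2 in control skin (log2 difference 0.51, adjusted p = 0.293). It was higher in both Ovol2 BT arrays, as was Col2a1. Its control values lay under the filter's bound, so its Ovol2 BT values brought it into the test. Sox6, a transcription factor gene of cartilage and other tissues, was at 257 and 239 in Ovol2 BT and 348 and 382 in control skin (-0.53, adjusted p = 0.422), lower in both Ovol2 BT arrays. Matn1, Matn3, Chad and Epyc were also left out as too dim, and Sox9, which hair follicles share with cartilage, was at 1241 and 1041 in Ovol2 BT and 1336 and 1398 in control skin. The part of cartilage in the Col2a1 values was not tested.

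All 5 tested type IV genes had higher means in Ovol2 BT, with log2 differences between 0.03 and 0.37. Type IV chains form the network of basement membranes, and Col4a1 and Col4a2 encode the chains present in nearly all of them. Col4a1 was at 1678 and 1307 in Ovol2 BT replicates 1 and 2, against 1278 and 1421 in control replicates 1 and 2 (log2 difference 0.13, 95% interval -0.34 to 0.61, adjusted p = 0.836), with control replicate 2 between the Ovol2 BT arrays. Col4a2 was at 1405 and 1139 in Ovol2 BT replicates 1 and 2, against 1088 and 1032 in control replicates 1 and 2 (log2 difference 0.25, 95% interval -0.22 to 0.72, adjusted p = 0.686), with both Ovol2 BT arrays above both controls. Ovol2 BT replicate 1 was the highest array for both genes. Without Ovol2 BT replicate 1 they stood at -0.04 and 0.10.

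Col4a3 and Col4a4, chains known from the basement membrane of the kidney glomerulus, had the lowest p of the class. Col4a3 was at 97.3 and 83.4 in Ovol2 BT replicates 1 and 2, against 70.0 and 67.6 in control replicates 1 and 2 (log2 difference 0.32, 95% interval -0.01 to 0.66, adjusted p = 0.497). Col4a4 was at 149 and 131 in Ovol2 BT replicates 1 and 2, against 103 and 107 in control replicates 1 and 2 (log2 difference 0.37, 95% interval -0.01 to 0.75, adjusted p = 0.498). For each gene both Ovol2 BT arrays exceeded both controls, and both intervals reached just below 0. Col4a5 was at 123 and 119 in Ovol2 BT replicates 1 and 2, against 119 and 118 in control replicates 1 and 2 (log2 difference 0.03, 95% interval -0.34 to 0.39, adjusted p = 0.965), where the lower Ovol2 BT value barely exceeded the higher control value. Col4a6 was left out by the filter, at 57.3 and 47.8 in Ovol2 BT and 75.4 and 53.3 in control skin, with a log2 difference of -0.22 and no test. In 4 of 5 tested genes of the class both Ovol2 BT arrays were above both controls, beside 20.4% of all tested genes. The class had 0 called and a median of 0.25. That median was 0.10 without Ovol2 BT replicate 1 and 0.40 without Ovol2 BT replicate 2.

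FACIT collagens, which bind to fibril surfaces, had log2 differences between -0.22 and 0.43, with 7 of 9 means higher and 0 called. Col12a1, found along type I fibrils of dense connective tissue, was at 2475 and 2722 in Ovol2 BT replicates 1 and 2, against 2862 and 3188 in control replicates 1 and 2 (log2 difference -0.22, 95% interval -0.61 to 0.18, adjusted p = 0.677). It was 1 of the 4 collagen genes with both Ovol2 BT arrays below both controls. Col14a1, another FACIT of the dermis, was at 1918 and 2589 in Ovol2 BT replicates 1 and 2, against 2349 and 2288 in control replicates 1 and 2 (log2 difference -0.06, 95% interval -0.51 to 0.40, adjusted p = 0.932), with the controls between the Ovol2 BT arrays. Col16a1 was at 425 and 329 in Ovol2 BT replicates 1 and 2, against 349 and 353 in control replicates 1 and 2 (log2 difference 0.09, 95% interval -0.41 to 0.58, adjusted p = 0.900), where only replicate 1 of Ovol2 BT exceeded the controls.

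Col9a1, a chain of type IX collagen on cartilage fibrils, had the lowest p of the class, at 343 and 393 in Ovol2 BT replicates 1 and 2, against 263 and 273 in control replicates 1 and 2 (log2 difference 0.43, 95% interval -0.03 to 0.90, adjusted p = 0.517). Both Ovol2 BT arrays were above both controls. Its partner chain genes were closer to level: Col9a2 at 153 and 149.5 in Ovol2 BT and 122 and 142 in control skin (log2 difference 0.18) and Col9a3 at 201 and 173 in Ovol2 BT and 164 and 183 in control skin (0.10). Col22a1, a FACIT of the muscle-tendon junction, was at 247 and 244 in Ovol2 BT and 201 and 203 in control skin (log2 difference 0.26, adjusted p = 0.650), with nearly equal values within each group. Col19a1 and Col20a1 had differences of 0.16 and 0.03. The median of the class was 0.10, and it lay between 0.06 and 0.19 when 1 array was left out.

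The chains of type VI collagen, the beaded filaments around dermal cells, gave no call, with small differences for Col6a1, Col6a2 and Col6a3. Col6a1 was at 4163 and 3898 in Ovol2 BT replicates 1 and 2, against 3758 and 3587 in control replicates 1 and 2 (log2 difference 0.13, 95% interval -0.23 to 0.49, adjusted p = 0.783). Col6a2 was at 4425 and 4034 in Ovol2 BT replicates 1 and 2, against 4393 and 4069 in control replicates 1 and 2 (log2 difference -0.00087, 95% interval -0.36 to 0.36, adjusted p = 0.999). Col6a3 was at 4656 and 4396 in Ovol2 BT replicates 1 and 2, against 4533 and 4545 in control replicates 1 and 2 (log2 difference -0.0046, 95% interval -0.35 to 0.34, adjusted p = 0.992). The groups overlapped for Col6a2 and Col6a3, and the Ovol2 BT arrays were slightly above controls for Col6a1. Among the later found type VI chains, Col6a6 was at 426 and 536 in Ovol2 BT replicates 1 and 2, against 388 and 323 in control replicates 1 and 2 (log2 difference 0.42, 95% interval -0.09 to 0.93, adjusted p = 0.571), higher in both Ovol2 BT arrays. Its second probe set, not used, gave a log2 difference of 0.61. Col6a4 and Col6a5 had differences of 0.23 and 0.14, and the second probe set of Col6a5 gave 0.04.

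The 2 chain genes of type VIII collagen, a short-chain network collagen of vessels and of the cornea's inner membrane, had differences of opposite sign. Col8a1 was at 178 and 176 in Ovol2 BT replicates 1 and 2, against 204 and 359 in control replicates 1 and 2 (log2 difference -0.58, 95% interval -1.17 to 0.02, adjusted p = 0.501). Both Ovol2 BT arrays were lower, but the controls were far apart. The difference was -0.19 without control replicate 2 and -0.96 without control replicate 1. Col8a2 was at 83.8 and 126 in Ovol2 BT replicates 1 and 2, against 73.3 and 71.2 in control replicates 1 and 2 (log2 difference 0.43, 95% interval 0.0045 to 0.86, adjusted p = 0.477, unadjusted p = 0.0481). Replicate 2 of Ovol2 BT carried most of it: without that array the difference was 0.18, and without replicate 1 it was 0.68. Whether the chains differ from each other in response was not tested.

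Col28a1, a collagen known from sheaths of peripheral nerve, had the lowest p of all members and was at 88.4 and 115 in Ovol2 BT replicates 1 and 2, against 78.6 and 68.2 in control replicates 1 and 2 (log2 difference 0.39, 95% interval 0.01 to 0.77, adjusted p = 0.473, unadjusted p = 0.0464). Both Ovol2 BT arrays were above both controls, at intensities close to the filter's bound of about 67.4. Of 6 tested Schwann cell markers 2 had higher and 4 lower means and 0 were called, with a median of -0.16. The 3 lowest p belonged to Mal, a myelin gene also found in epithelia (-0.59, adjusted p = 0.447), Sox10, a transcription factor of Schwann cells and melanocytes (-0.28, adjusted p = 0.649), and the myelin gene Pmp22 (-0.14, adjusted p = 0.758), while Egr2, chosen after its value was seen, was higher in both Ovol2 BT arrays (0.08, adjusted p = 0.900).

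Col7a1, which encodes the anchoring fibrils below the epidermis and is made by keratinocytes as well as fibroblasts, was at 657 and 459.8 in Ovol2 BT replicates 1 and 2, against 579 and 565 in control replicates 1 and 2 (log2 difference -0.06, 95% interval -0.59 to 0.48, adjusted p = 0.944). The controls lay between the Ovol2 BT arrays, and the difference was 0.19 without Ovol2 BT replicate 2 and -0.31 without replicate 1. In the same arrays 3 of 14 keratinocyte markers were called lower, beside 0.348% of all tested genes. Means of the list were lower for 13 and higher for 1, with a median of -0.25. Both Ovol2 BT arrays were below both controls for 7 and above for 0, beside 21.9% and 20.4% of all tested genes, and the groups overlapped for 7. The 3 called genes were all keratin genes of basal cells. Krt14 was at 2832 and 2170.3 in Ovol2 BT and 6529 and 5261 in control skin (log2 difference -1.24, adjusted p = 0.0226), Krt5 at 4478 and 3790.1 in Ovol2 BT and 9484 and 8288 in control skin (-1.10, adjusted p = 0.0148) and Krt15 at 806 and 631 in Ovol2 BT and 3697 and 3399 in control skin (-2.29, adjusted p = 0.00311). Without a variance trend Krt15 was the only one of these to pass (adjusted p of 0.0524 for Krt14 and 0.0526 for Krt5), and with arrays centred on the fibroblast markers Krt5 did not (0.0688). Whether the lower levels of these basal keratins bear on the Col7a1 value was not tested.

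The multiplexin genes Col15a1 and Col18a1, whose products lie in basement membrane zones and around vessels, had differences of opposite sign. Col15a1 was at 1467 and 1274 in Ovol2 BT replicates 1 and 2, against 975 and 1157 in control replicates 1 and 2 (log2 difference 0.36, 95% interval -0.11 to 0.83, adjusted p = 0.587), higher in both Ovol2 BT arrays. Col18a1, whose product carries endostatin, was at 705 and 627 in Ovol2 BT and 737 and 726 in control skin (log2 difference -0.13, adjusted p = 0.833), lower in both. Of the transmembrane collagens, Col13a1, Col23a1 and Col25a1 differed by 0.15, 0.19 and 0.08. Col10a1, the collagen of hypertrophic cartilage, was at 0.24. Col26a1 was at 975 and 896 in Ovol2 BT and 1136 and 1087 in control skin (log2 difference -0.25, adjusted p = 0.679), with both Ovol2 BT arrays below both controls. Over the 17 genes of other types, 11 means were higher and 6 lower, with a median of 0.14. Both Ovol2 BT arrays were above both controls for 9 and below for 3, beside 20.4% and 21.9% of all tested genes.

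Several collagen genes lie side by side in the RefSeq annotation, with no protein-coding gene between them. The neighbours Col4a1 and Col4a2 had differences of 0.13 and 0.25, and Col4a3 and Col4a4 had 0.32 and 0.37. Col4a5 and Col4a6 stood at 0.03 and -0.22, Col3a1 and Col5a2 at -0.05 and 0.06, and Col6a1 and Col6a2 at 0.13 and -0.00087. In the row Col6a4, Col6a5 and Col6a6 the values were 0.23, 0.14 and 0.42, and for Col9a1 and Col19a1 they were 0.43 and 0.16.

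Genes that make and process collagen gave no call either. Of 19 genes of collagen biosynthesis, which hydroxylate, fold and export the chains, 0 were called, 6 had higher and 13 lower means, and the median was -0.03. Serpinh1, the collagen chaperone, was at 3125 and 2561 in Ovol2 BT and 3369 and 2697 in control skin (log2 difference -0.09, adjusted p = 0.881). P4ha1, a prolyl hydroxylase subunit gene, was at 1043 and 1417 in Ovol2 BT and 1286 and 1268 in control skin (-0.07, adjusted p = 0.920), and the lysyl hydroxylase genes Plod2 and Plod3 were at 0.14 and 0.34. The lowest p of that list belonged to Plod3 (adjusted p = 0.605), the prolyl 3-hydroxylase gene P3h2 (-0.39, adjusted p = 0.608) and P4ha3 (-0.38, adjusted p = 0.619). Of 12 genes of procollagen processing and crosslinking, 0 were called and 9 had higher means. Among them Lox, the lysyl oxidase that crosslinks fibrils, was at 1769 and 1794 in Ovol2 BT and 1352 and 1929 in control skin (0.14, adjusted p = 0.837), and Pcolce2, an enhancer of procollagen cleavage, was at 159 and 251 in Ovol2 BT and 134 and 110.3 in control skin (0.65, adjusted p = 0.390). Tgm2, a transglutaminase gene, stood at 0.41, adjusted p = 0.556, and Loxl3 at 0.28, adjusted p = 0.675.

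Proteins that bind or degrade collagen gave 0 calls as well. Of 10 tested fibril-associated genes 6 had higher means, with Dcn, the proteoglycan decorin, at 5109 and 6538 in Ovol2 BT and 5184 and 5895 in control skin (log2 difference 0.06, adjusted p = 0.910) and Prelp, a leucine-rich proteoglycan gene, at 1479 and 1390.2 in Ovol2 BT and 1131 and 749 in control skin (0.63, adjusted p = 0.418). Tnxb, which encodes the matrix protein tenascin-X, stood at 0.39, adjusted p = 0.604 and Podn at 0.28, adjusted p = 0.659. Of 9 collagen receptor genes the lowest p belonged to Lair1, an inhibitory receptor of leukocytes, at 95.3 and 120.0 in Ovol2 BT and 64.3 and 67.8 in control skin (0.58, adjusted p = 0.211). The control mean of that gene lay under the filter's bound, so its Ovol2 BT values brought it into the test. Without Ovol2 BT replicate 1 its log2 difference was 0.73. The integrin genes Itga1 and Itga10 were at 0.28, adjusted p = 0.669 and -0.14, adjusted p = 0.757. Of 12 tested genes of collagen degradation and its inhibitors 8 had higher means. Mmp2, a gelatinase gene, was at 3675 and 3558 in Ovol2 BT and 3553 and 3003 in control skin (0.15, adjusted p = 0.778), Mmp14 at -0.18, adjusted p = 0.740 and Timp1 at -0.32, adjusted p = 0.668, while the collagenase gene Mmp13 was left out by the filter at 92.5 and 61.1 in Ovol2 BT and 53.4 and 52.3 in control skin.

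Timp4, a metalloproteinase inhibitor gene, had the largest difference of these lists. It was at 462 and 316 in Ovol2 BT replicates 1 and 2, against 169 and 139.7 in control replicates 1 and 2 (log2 difference 1.23, 95% interval 0.69 to 1.77, adjusted p = 0.0582), with both Ovol2 BT arrays well above both controls. It was called by limma with the lower 50% of genes left out (adjusted p = 0.0210), under median centring (0.0342) and with arrays centred on the fibroblast markers (0.00618). The last of these fits used only the variance trend over all genes and no variance of a gene's own. With the replicate number as a block the adjusted p of Timp4 was 0.00125. Over all tested genes 0.615% were called higher in the same arrays. Adipose tissue is a known site of Timp4 expression, and of 13 adipocyte markers 9 were called higher. Their part in the Timp4 value was not tested.

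Partners of type IV collagen in the basement membrane split in direction, with 5 of 11 means higher, 6 lower and 0 called. Frem2 and Fras1, which encode parts of the complex that holds the embryonic epidermis to the dermis, were lower in both Ovol2 BT arrays. Frem2 was at 300.5 and 338 in Ovol2 BT and 661 and 647 in control skin (log2 difference -1.0, adjusted p = 0.0775) and Fras1 at 728 and 572 in Ovol2 BT and 1019 and 931 in control skin (-0.58, adjusted p = 0.410). Frem2 was called by limma under median centring (adjusted p = 0.0396) and with the replicate number as a block (0.00428). Smoc1, a calcium-binding basement membrane gene, stood higher at 662 and 567 in Ovol2 BT and 414 and 334 in control skin (0.70, adjusted p = 0.305), and passed with the block (0.0286). The linker genes Nid1 and Nid2 were at 0.24 and 0.25 and the perlecan gene Hspg2 at 0.32, on the same side as the type IV genes and uncalled. On the other side, and also uncalled, Agrn, Frem1 and Smoc2 stood at -0.55, -0.43 and -0.38, each lower in both Ovol2 BT arrays.

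**Figure D3:**
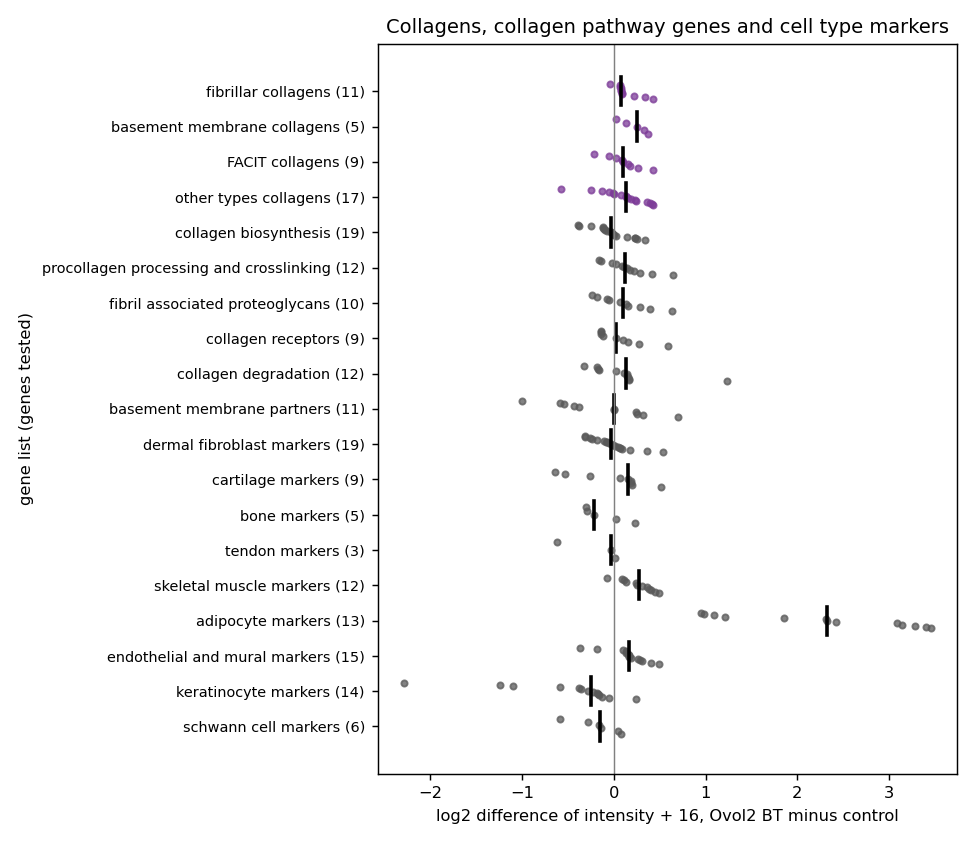
Log2 difference (Ovol2 BT minus control) of each tested gene of the collagen classes (purple), of collagen pathway lists and of cell type marker lists (grey), with the number of genes tested in brackets and a black bar at each list's median. The collagens lie between -0.58 and 0.43, whereas the adipocyte markers have a median of 2.32.

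Fat, muscle and vessels also express collagens, and of their marker lists that of adipocytes held called genes. All 13 tested adipocyte markers had higher means and 9 were called higher, beside 0.615% of all tested genes. The markers had a median log2 difference of 2.32 and a summed intensity of 22616 and 23027 in Ovol2 BT, against 6983 and 5137 in control skin. Adipoq, the fat cell hormone gene, was at 3568 and 3708 in Ovol2 BT and 1076 and 409 in control skin (2.42, adjusted p = 0.0191). The other called genes were the lipid droplet genes Cidea (3.14, adjusted p = 0.00317), Cidec (3.28, adjusted p = 0.0191), Plin1 (1.85, adjusted p = 0.0076) and Plin4 (2.32, adjusted p = 0.00516), the leptin gene Lep (1.21, adjusted p = 0.0093), Ucp1 of brown fat (2.31, adjusted p = 0.00481), and Pck1 (3.09, adjusted p = 0.00481) and Thrsp (3.46, adjusted p = 0.00668) of lipid metabolism. Control means of Cidea, Lep, Ucp1 and Pck1 (intensities of 55.1, 42.4, 41.1 and 52.2) lay under the filter's bound of about 67.4. Their Ovol2 BT values brought them into the test, so the share called is not on an equal footing with that of all genes. Skeletal muscle markers had 11 of 12 means higher and 0 called, with sums of 29423 and 34114 in Ovol2 BT, against 26029.8 and 26313 in control skin, the lowest p belonging to Des (0.41, adjusted p = 0.433), Ckm (0.36, adjusted p = 0.464) and Ttn (0.45, adjusted p = 0.530). Endothelial and mural markers had 13 of 15 means higher and 0 called, with sums of 16422 and 17624 in Ovol2 BT, against 15291 and 14676 in control skin, the lowest p belonging to Cldn5 (0.50, adjusted p = 0.512), Tie1 (0.40, adjusted p = 0.562) and Cdh5 (0.27, adjusted p = 0.627). Bone and tendon markers had 0 of 5 and 0 of 3 tested genes called, with medians of -0.22 and -0.03. Of bone markers the lowest p belonged to Sp7 (-0.30, adjusted p = 0.605), Dmp1 (0.23, adjusted p = 0.635) and Alpl (-0.31, adjusted p = 0.657). The tendon genes were Tnmd (-0.62, adjusted p = 0.363), Scx (-0.03, adjusted p = 0.960) and Thbs4 (0.02, adjusted p = 0.984), of which Tnmd passed with the replicate number as a block (0.0482). The summed intensity of the 43 collagen genes was 56434 and 51682 in Ovol2 BT, against 52115 and 51857 in control skin, so that Ovol2 BT replicate 1 stood above the other 3 arrays, which were close together. The part of fat, muscle and vessel in the collagen values was not tested.

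**Figure D4:**
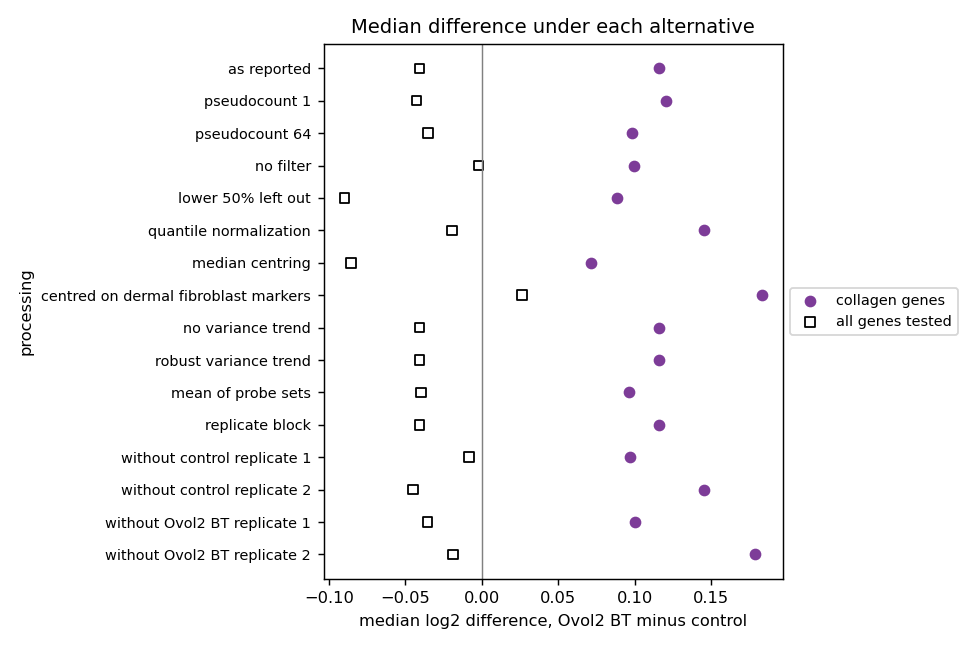
Median log2 difference (Ovol2 BT minus control) of the tested collagen genes (purple points) and of all tested genes (open squares) under each processing alternative. The collagen median lay between 0.07 and 0.18 and above that of all genes in each.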

How the data were processed

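Skin RNA was measured on 4 Affymetrix whole-transcript arrays, 2 per group. Per the submitters' processing notes, the authors used PLIER 2.0 and Affymetrix Expression Console 1.1.1. The deposited values are intensities on a linear scale, 1 per probe set. The sources used here do not give the background correction, the normalization within PLIER or a genome build. The values contain no detection calls, and 9.44% to 10.1% of them lie below 16 on each array.

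Sample titles gave each array's group and replicate number. Of 35557 probe sets, 21789 name 1 gene by the platform annotation. A gene with several was represented by the brightest on average. All 43 collagen genes matched RefSeq (GRCm38.p6, used for names, neighbours and upstream sequences) by Entrez ID, with 0 symbols changed, and 2 of them had 2 probe sets. Values were taken as log2(intensity + 16), so fold changes of dim genes are understated. The 25% of genes with the lowest mean (4985, under an intensity of about 67.4) were left out. The remaining 14953 were fitted with limma 3.58.1 in R 4.3.3 (eBayes, variance trend; 6.94 prior and 2 residual degrees of freedom). Tests were two-sided, and p-values were adjusted over all of them by Benjamini-Hochberg. The fit was also run on data simulated from its own variance estimates, with independent arrays and known changes. That run checks the calculation and does not measure the power for these arrays. Lists were described by counts and medians, without a test. Python 3.11.15, matplotlib 3.10.9 and pandas 2.3.3 served for tables and plots.

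Members and lists were chosen with earlier results of these data known. Values per array are given for the 10 members with the lowest p, the 3 brightest and the lowest-p member of each class. Of other lists, called genes, the 3 with the lowest p and a fixed set are named. A few markers (Sox9, Matn1, Matn3, Chad, Epyc, Egr2, Nid1, Nid2, Hspg2, Agrn, Frem1 and Smoc2) were chosen after their values were seen. Alternatives were pseudocounts of 1 and 64, fits without a filter or without the lower 50% of genes, 3 other scalings, 2 other variance settings, averaging a gene's probe sets, a block for the replicate number, leaving out each array in turn and a threshold of 0.10.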

Additional observations from a re-analysis of the deposited data

How the results depend on the processing

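The count of called collagen genes was 0 under every alternative run. That includes a threshold of 0.10 on the adjusted p with all 4 arrays and no block. Over the limma fits with all 4 arrays the lowest adjusted p of a member was 0.123, with the replicate block. The count of all genes called was 144. It was 218 under median centring (110 higher and 108 lower, 50.5% higher against 63.9%), 210 with arrays centred on dermal fibroblast markers, and 206 to 366 with 1 array left out. With the replicate number as a block it was 671 (323 higher, 348 lower), again with 0 collagen genes called and a lowest adjusted p of 0.123. No label pairs arrays of the same number. Deviations of same-numbered arrays from their group means correlated at 0.41 across all tested genes and at -0.08 across the collagen genes. The block changed no call of a collagen. With it 8 collagen genes had an unadjusted limma p under 0.05, against 2 without it, while calls over all tested genes rose from 144 to 671. The member with the lowest p was then Col8a1 and not Col28a1. Where 1 array was left out, its partner was taken to vary as much as the other group's arrays. The fits without a control array, and the one centred on fibroblast markers, used only the variance trend over all genes and no variance of a gene's own.

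The median of the collagen genes was 0.12, and 0.18 with arrays centred on dermal fibroblast markers. The fibrillar median was 0.08, and 0.037 under median centring and 0.15 with the fibroblast centring. The FACIT median was 0.10, and 0.14 after quantile normalization, 0.055 under median centring and 0.17 with the fibroblast centring. The median of other types was 0.14, and -0.00087 with the lower 50% of genes left out, which removes its dimmer members. With 1 array left out the medians ranged from 0.10 to 0.18 for all collagens, 0.034 to 0.16 for fibrillar genes, 0.10 to 0.40 for type IV and 0.064 to 0.19 for FACIT. Of the 42 tested genes, 28 kept the sign of their difference in all alternatives that tested them (24 higher, 4 lower) and 14 changed it in at least 1. The cause of these shifts was not tested. The files used here hold no detection calls, so the lowest intensities cannot be told from background.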
